A study of Mus musculus with 8 samples.

Results

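Pyruvate is the main fuel of the mouse egg, and 10 genes that move, oxidise or interconvert it with lactate were described in 8 mouse oocytes sequenced singly at MII, the arrest in which the ovulated egg awaits sperm. The genes were taken by symbol, and all 10 were found among the 37620 Ensembl gene identifiers of the deposited table. They are the mitochondrial pyruvate carrier genes Mpc1 and Mpc2, the pyruvate dehydrogenase genes Pdha1, Pdhb, Dlat and Dld, the kinase genes Pdk1 and Pdk3, and the lactate dehydrogenase genes Ldha and Ldhb. RNA-seq had been made from 4 KO oocytes, Hira f/f with Gdf9-Cre, and from 4 WT oocytes, Hira f/f with no Cre in the genotype label, all of strain C57BL/6. Hira encodes a chaperone that deposits histone H3.3, and the study compared eggs with and without it. Gdf9-Cre is driven by an oocyte promoter, so the deletion is limited to the germ cell within the follicle, and both genotypes share the floxed alleles. The sample titles carry the tag Gdf9-Cre+ for WT as well, and the groups follow the description labels. No ages are given in the sources used here.

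As background, mouse oocytes take up pyruvate made by the surrounding cumulus cells and use glucose poorly. Lactate dehydrogenase, a tetramer of A and B subunits, exchanges pyruvate and lactate in the cytosol. A carrier of MPC1 and MPC2 brings pyruvate into mitochondria, and the pyruvate dehydrogenase complex turns it into acetyl-CoA. In that complex E1, made of alpha and beta subunits, decarboxylates pyruvate, E2 carries the lipoyl arm and E3 reoxidises it. Kinases of the PDK family switch E1 off by phosphorylating its alpha subunit, and phosphatases switch it on again.

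Ldhb was the dominant mRNA of the set and Ldha was almost absent. Levels are in FPKM, read fragments divided by exon length and by the size of the library, so a comparison between genes depends on the exon length used for each. Ldhb (ENSMUSG00000030246, chromosome 6, 142490249 to 142507957 on the minus strand of GRCm38) encodes the B subunit, the form of tissues that oxidise lactate. KO oocytes 1, 3, 5 and 6 held 1862, 2416, 1575 and 3339.5 FPKM of Ldhb, and WT oocytes 1, 2, 4 and 5 held 2551, 1025, 2278 and 2005 FPKM. KO oocyte 6 was the highest and WT oocyte 2 the lowest of the 8, and the genotypes overlapped. The means were 2298 ± 777 FPKM in KO and 1965 ± 665 FPKM in WT (SD, n = 4 oocytes each), a difference of 0.25 on the log2(FPKM + 1) scale that was -0.040 without WT oocyte 2 and 0.74 with quantile normalization, which gave a 1.71-fold higher mean in KO. Among all genes of an oocyte Ldhb ranked 23, 12, 19 and 6 in the KO oocytes and 19, 52, 21 and 24 in the WT oocytes. Its mean over the 8 oocytes, 2131 FPKM, was 43.6-fold that of Pdhb, the next gene of the set. With the same reads divided by the exon lengths of GENCODE M21 it was 113-fold that of Pdhb and 70.4-fold that of Mpc1, then the next gene. Reads were not counted again on those exons.

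Ldha (ENSMUSG00000063229, chromosome 7, 46841475 to 46855627 on the plus strand) encodes the A subunit, the form of glycolytic tissues. It had 181, 0, 10 and 0 reads in KO oocytes 1, 3, 5 and 6 and no read in any WT oocyte. Its FPKM was 1.40 in KO oocyte 1 and 0.0760 in KO oocyte 5. Ldha was the single member that failed the filter for comparison, a floor of 1 FPKM in 4 or more of the 8 oocytes. Against 3 reads per WT library the KO mean was at least 16.1-fold higher, but the other KO oocytes averaged 0.0253 FPKM, below the highest level that 3 reads give in a KO library, 0.0258 FPKM. Nearly all Ldha reads thus came from KO oocyte 1. Of 14 cumulus and granulosa markers, Fshr had 30, 0, 6 and 0 reads in KO oocytes 1, 3, 5 and 6 and no read in WT, in the same oocytes as Ldha. The summed level of these markers, mostly Cyp19a1, was 8.48 FPKM in KO oocyte 1 and 25.5 to 33.3 FPKM in the other KO oocytes. Of the oviduct markers, Ovgp1 had 64 reads in KO oocyte 1 and none elsewhere. Of the immune markers, Ptprc had 227 reads in KO oocyte 1, 160 in KO oocyte 6 and none elsewhere. Other markers of these lists had a different pattern from Ldha. Kitl, of the cumulus and granulosa list, had 117, 809, 764 and 578 reads in KO oocytes 1, 3, 5 and 6. In WT oocytes 1, 2, 4 and 5 Kitl had 7, 73, 1002 and 497 reads. Inhba had 0, 0, 25 and 1 reads in these KO oocytes and 9, 15, 0 and 0 in the WT oocytes. Ptgs2 had 2, 2, 6 and 0 reads in KO and 0, 0, 47 and 20 in WT. Cd68 had 0, 69, 90 and 141 reads in KO oocytes 1, 3, 5 and 6, and Epcam had 67, 250, 0 and 45. Both were read in WT as well. Tnfaip6 had 49 reads in WT oocyte 1 and none elsewhere. The part of these cells in the Ldha reads was not tested. The pseudogenes Ldha-ps and Ldha-ps2 were listed at 0 in all 8 oocytes.

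The testis gene Ldhc had 342 reads over the KO oocytes and 72 over the WT oocytes, at most 2.68 FPKM in any oocyte. Together these genes left Ldhb with at least 99.8% of the FPKM of Ldha, Ldhb and Ldhc in every oocyte. The share averaged 99.92% ± 0.0637 in KO and 99.99% ± 0.0167 in WT (SD, n = 4 oocytes each). Ldhd, which encodes a mitochondrial D-lactate dehydrogenase, held at most 0.310 FPKM in KO and 0.409 FPKM in WT, and 42.2% of its exonic bases lie within Znrf1 as well.

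The sequences of the isozyme genes are shown because the contrast of Ldhb and Ldha rests on reads that can be told apart. The coding sequences have 1005 and 999 bases in GENCODE M21, are identical at 71.6% of aligned positions and share no run longer than 18 bases. Of the first 60 coding bases 22 differ, and these are in capitals.
Ldhb: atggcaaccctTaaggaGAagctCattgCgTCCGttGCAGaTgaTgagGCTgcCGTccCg
Ldha: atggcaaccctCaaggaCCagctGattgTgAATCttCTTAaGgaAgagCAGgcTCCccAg
The promoters of this pair are printed for their composition. The 250 bases before a RefSeq start of each gene, on GRCm38.p6, are given 5′ to 3′ on the gene's strand. The 2 starts listed for Ldha lie inside the span that GENCODE M21 gives this gene. Ldhb lies at chr6:142507958-142508207 (minus) and the first of the 2 listed Ldha starts at chr7:46845554-46845803 (plus). Capitals mark ACGTG, the core of the hypoxia response element, and GGGCGG, the GC box, on either strand.
Ldhb: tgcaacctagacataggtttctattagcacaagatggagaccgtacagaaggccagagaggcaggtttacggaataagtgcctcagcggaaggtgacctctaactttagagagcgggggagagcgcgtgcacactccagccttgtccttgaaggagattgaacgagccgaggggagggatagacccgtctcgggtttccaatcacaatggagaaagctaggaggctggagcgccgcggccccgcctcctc
Ldha: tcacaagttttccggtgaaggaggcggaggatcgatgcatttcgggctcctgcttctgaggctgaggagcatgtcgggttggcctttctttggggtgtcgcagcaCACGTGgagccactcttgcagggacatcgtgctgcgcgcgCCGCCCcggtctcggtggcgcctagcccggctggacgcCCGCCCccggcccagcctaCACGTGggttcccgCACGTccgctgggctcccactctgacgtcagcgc
The Ldhb window holds neither motif and is 56.4% G and C, while the Ldha window holds ACGTG 5 times over both strands and GGGCGG 2 times and is 67.2% G and C. CACGTG reads the same on both strands and so counts as 2 of ACGTG. Of the 32851 windows of this length, 16.6% hold ACGTG and 32.7% hold GGGCGG. The second Ldha window, at chr7:46846832-46847081, holds neither and is 54.4% G and C, close to the Ldhb window. A match describes letters only.

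**Figure D1:**
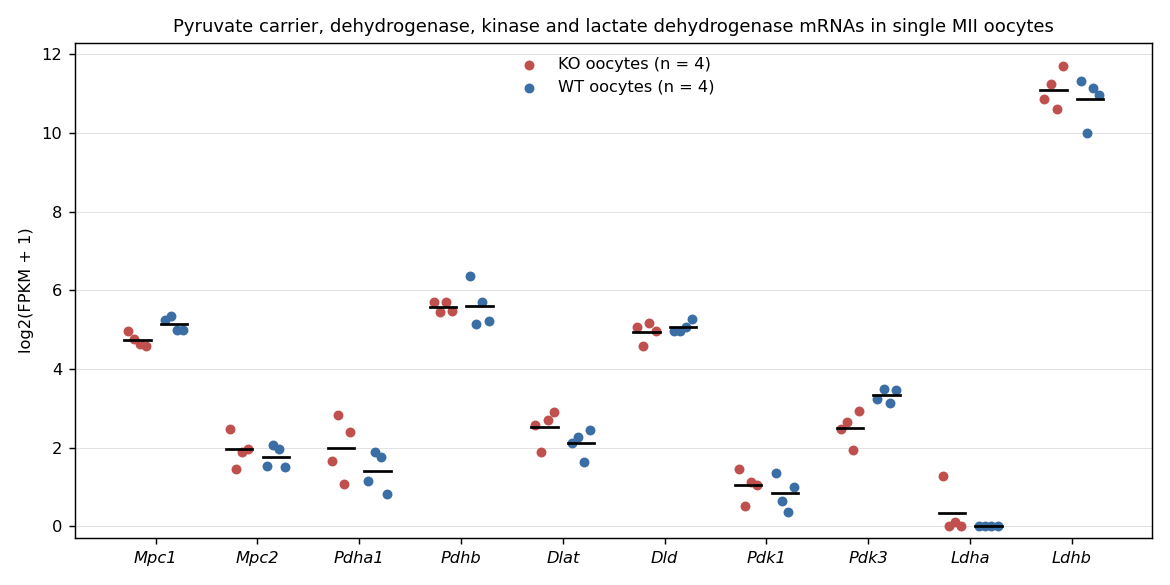
Level of each of the 10 genes on the log2(FPKM + 1) scale, with 1 point per oocyte, KO left of WT, and a black line at the mean of 4 oocytes. Ldhb stands near 11 in both genotypes, Ldha at 0 in all WT oocytes, and the KO and WT points of Mpc1 and Pdk3 do not overlap.

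Each genotype counts as 1 sample, because a library is a single cell and no label says from which female it came. No test between genotypes was therefore made, SDs give the spread between oocytes, and a gene is called where its mean FPKM differs by at least 2-fold. By that rule 1434 of 7833 compared genes were higher in KO (18.3%) and 536 were lower (6.84%). All 4 KO oocytes stood above all 4 WT oocytes in 13.4% of compared genes and below them in 7.37%. The deposited FPKM summed to 284336 to 316109 per KO oocyte and 341192 to 343705 per WT oocyte, so scaling matters here. With each oocyte scaled to its sum the counts were 1849 higher and 357 lower, with median-of-ratios scaling 1201 and 713, and with quantile normalization 1043 and 886. The median difference of all compared genes, KO minus WT on the log2(FPKM + 1) scale, was 0.10 as deposited and 0.27, -0.016 and -0.067 under these scalings. Library totals, recovered from the step of 1 read in the FPKM, were 39003511 to 47366497 reads in KO and 38032455 to 50208686 in WT. Genes of at least 1 FPKM numbered 7827 to 8512 per KO oocyte and 7121 to 7467 per WT oocyte, without overlap.

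All 10 oocyte markers held at least 1 FPKM in every oocyte, and they summed to 7879 to 10247 FPKM in KO and 12039 to 17617 in WT. That sum was mostly Dppa3, at 7077 FPKM in KO and 11910 in WT by mean. The KO mean was 1.70-fold the WT mean for Ooep and 1.01-fold for Nlrp5, and it was lower than the WT mean for the rest. Of the cumulus and granulosa markers, Amh, Inha, Foxl2, Npr2 and Cyp11a1 had no read and 12 stayed below 1 FPKM. The sum, 8.48 to 33.3 FPKM in KO and 17.1 to 29.9 in WT, was mostly Cyp19a1. Blood and immune markers summed to 1.41 to 3.53 FPKM in KO and 0 to 2.17 in WT, with Hba-a1 and Lyz2 at 0 and Hbb-b1 not used here. Oviduct epithelium markers summed to 0 to 3.14 FPKM in KO and 0.596 to 1.10 in WT, with Krt18 at 0. The part of these markers in the results was not tested. Hira itself had 0, 2, 0 and 2 reads in KO oocytes 1, 3, 5 and 6 and 42, 0, 96 and 1 reads in WT oocytes 1, 2, 4 and 5. It thus follows the labels in sum but separates single oocytes poorly, and the WT sum came almost wholly from oocytes 1 and 4. Hira held at most 0.362 FPKM in any oocyte, and 44.7% of its exonic bases lie within Gm28539 as well.

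None of the 9 compared members differed by 2-fold in either direction, against a background of 18.3% higher and 6.84% lower. Of these, 5 had a higher and 4 a lower mean in KO, and their median difference was 0.20, beside 0.10 for all compared genes. In 2 of the 9, Mpc1 and Pdk3, all KO oocytes lay below all WT oocytes, beside 7.37% of all compared genes. In none did all KO oocytes lie above all WT oocytes, beside 13.4%, and in the other 7 the genotypes overlapped. Spread between oocytes differed widely among members. The SD on the log2 scale was 0.18 in both genotypes for Mpc1, 0.26 in KO and 0.15 in WT for Dld, and 0.77 in KO and 0.50 in WT for Pdha1, where the median over compared genes was 0.38 in KO and 0.41 in WT.

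Mpc1 was the more abundant of the carrier genes in every oocyte. Mpc1 (ENSMUSG00000023861, chromosome 17, 8282904 to 8297661, plus strand) encodes the carrier subunit MPC1 and held 30.4, 26.2, 23.9 and 22.8 FPKM in KO oocytes 1, 3, 5 and 6, against 37.2, 39.7, 30.9 and 30.7 FPKM in WT oocytes 1, 2, 4 and 5. The highest KO oocyte lay just under the lowest WT oocyte. The means were 25.8 ± 3.37 FPKM in KO and 34.6 ± 4.56 FPKM in WT, 1.34-fold lower in KO with a difference of -0.41. When each oocyte was scaled to its sum the difference was -0.20, beside 0.27 for all genes, and the genotypes overlapped, with 25.3 to 30.7 FPKM in KO and 28.7 to 36.9 in WT. GENCODE M21 places 23.1% of the exonic bases of Mpc1 within 4930506C21Rik as well, which itself held at most 0.137 FPKM.

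Mpc2 (ENSMUSG00000026568, chromosome 1, 165460637 to 165481214, plus strand), whose product pairs with MPC1 in the carrier, held 4.59, 1.76, 2.70 and 2.93 FPKM in KO oocytes 1, 3, 5 and 6, against 1.88, 3.16, 2.87 and 1.82 FPKM in WT oocytes 1, 2, 4 and 5. KO oocyte 1 was highest and KO oocyte 3 lowest, so the genotypes overlapped, and the KO mean was 1.23-fold the WT mean and 1.01-fold without KO oocyte 1. The difference of 0.20 turned to -0.086 with quantile normalization. Mpc1 exceeded Mpc2 in all 8 oocytes, by 6.63-fold to 14.9-fold in KO and 10.8-fold to 19.8-fold in WT. With the same reads divided by GENCODE M21 exon lengths the folds were 12.8 to 28.9 in KO and 20.8 to 38.3 in WT. As deposited, Mpc2 took 10.2% ± 2.90 of carrier FPKM in KO and 6.57% ± 1.68 in WT (SD, n = 4 oocytes each), with overlap.

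Within the dehydrogenase, the E1 beta gene Pdhb was above the E1 alpha gene Pdha1 in every oocyte. Pdhb (ENSMUSG00000021748, chromosome 14, 8165996 to 8173025, minus strand) encodes E1 beta and held 51.0, 43.0, 51.1 and 43.2 FPKM in KO oocytes 1, 3, 5 and 6, against 81.6, 34.1, 50.7 and 36.3 FPKM in WT oocytes 1, 2, 4 and 5. The KO oocytes were close together inside the WT range, with a coefficient of variation of 9.74% in KO and 43.2% in WT, where WT oocyte 1 was high. The difference was -0.021, and it was 0.23 without WT oocyte 1 and -0.18 without WT oocyte 2.

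Pdha1 (ENSMUSG00000031299, chromosome X, 160122209 to 160138413, minus strand) encodes E1 alpha, the subunit that the kinases phosphorylate. It held 2.18, 6.10, 1.11 and 4.23 FPKM in KO oocytes 1, 3, 5 and 6, against 1.23, 2.68, 2.40 and 0.766 FPKM in WT oocytes 1, 2, 4 and 5. KO oocytes 3 and 6 exceeded every WT oocyte, while KO oocytes 1 and 5 lay among them. The means were 3.41 ± 2.22 FPKM in KO and 1.77 ± 0.916 FPKM in WT, 1.92-fold higher in KO. The fold was 1.42 without KO oocyte 3 and 2.36 without KO oocyte 5, and 2.23 with each oocyte scaled to its sum. Pdhb exceeded Pdha1 by 7.04-fold to 46.0-fold in KO and 12.7-fold to 66.1-fold in WT. With the same reads divided by GENCODE M21 exon lengths, which are longer for Pdhb, the folds were 2.68 to 17.5 in KO and 4.84 to 25.2 in WT. Of the exonic bases of Pdha1, 16.1% lie within Map3k15 as well.

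Pdha2, an intronless E1 alpha gene on chromosome 3 known from testis, is printed beside Pdha1 because both were read in these oocytes. Their coding sequences are identical at 75.8% of aligned positions with no shared run over 20 bases, and 34 of the first 60 coding bases differ, in capitals.
Pdha1: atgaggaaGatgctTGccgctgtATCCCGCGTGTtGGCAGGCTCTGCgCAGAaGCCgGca
Pdha2: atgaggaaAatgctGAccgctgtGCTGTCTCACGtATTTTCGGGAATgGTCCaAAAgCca
Pdha2 held 11.02, 14.7, 4.36 and 1.06 FPKM in KO oocytes 1, 3, 5 and 6, against 0.236, 4.08, 0 and 1.90 FPKM in WT oocytes 1, 2, 4 and 5. KO oocytes 1, 3 and 5 exceeded every WT oocyte, and KO oocyte 6 did not. The KO mean was 5.02-fold higher, 3.53-fold without KO oocyte 3 and 10.9-fold without WT oocyte 2. Pdha2 reached 1 FPKM in 4 KO oocytes and 2 WT oocytes, so the genotype where it is high sufficed for the filter. Pdha1 and Pdha2 together gave 5.29 to 20.8 FPKM in KO and 1.47 to 6.76 FPKM in WT, with overlap at the margin.

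The genes of E2 and E3 showed no consistent order of the genotypes. Dlat (ENSMUSG00000000168, chromosome 9, 50634633 to 50659780, minus strand) encodes the E2 acetyltransferase and held 4.92, 2.69, 5.55 and 6.47 FPKM in KO oocytes 1, 3, 5 and 6, against 3.30, 3.82, 2.12 and 4.40 FPKM in WT oocytes 1, 2, 4 and 5. All KO oocytes but oocyte 3 exceeded the WT oocytes, and the means were 4.91 ± 1.61 FPKM in KO and 3.41 ± 0.973 FPKM in WT, 1.44-fold higher in KO. Dld (ENSMUSG00000020664, chromosome 12, 31331277 to 31351453, minus strand) encodes E3, which other 2-oxoacid dehydrogenases share. It held 32.8, 22.8, 34.9 and 30.1 FPKM in KO oocytes 1, 3, 5 and 6, against 30.2, 30.1, 32.3 and 37.7 FPKM in WT oocytes 1, 2, 4 and 5, with a difference of -0.12 that turned to 0.084 when scaled to the sum. Pdhx, not among the 10 genes, encodes the protein that tethers E3 to the core, and it averaged 37.3 ± 14.7 FPKM in KO and 51.9 ± 10.5 FPKM in WT with overlap. Pdhx exceeded Dlat by 5.46-fold to 10.04-fold in KO and 11.3-fold to 20.4-fold in WT, without overlap as deposited, a ratio singled out after its values were seen. With quantile normalization the ratios overlapped, at 5.77 to 11.1 in KO and 9.90 to 19.2 in WT.

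Of the kinase genes, Pdk3 was the more abundant in all 8 oocytes and lower in KO. Pdk3 (ENSMUSG00000035232, chromosome X, 93764607 to 93832201, minus strand) encodes a kinase isoform that inhibits E1, and it held 4.52, 5.32, 2.82 and 6.68 FPKM in KO oocytes 1, 3, 5 and 6, against 8.43, 10.2, 7.80 and 9.98 FPKM in WT oocytes 1, 2, 4 and 5. No KO oocyte reached the lowest WT oocyte. The means were 4.83 ± 1.61 FPKM in KO and 9.10 ± 1.17 FPKM in WT, 1.88-fold lower in KO with a difference of -0.83, from 2160 reads in KO (95% Poisson interval 2070 to 2253, counting error only) and 4090 in WT (3966 to 4217). It was 2.10-fold lower with median-of-ratios scaling and 2.22-fold with quantile normalization. Scaled to the sum it was 1.63-fold lower, with 3.17 to 7.40 FPKM in KO and 7.27 to 9.47 in WT, so that the genotypes just overlapped.

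Pdk1 (ENSMUSG00000006494, chromosome 2, 71873224 to 71903858, plus strand), a kinase isoform known as a hypoxia target, held 1.76, 0.415, 1.19 and 1.07 FPKM in KO oocytes 1, 3, 5 and 6, against 1.56, 0.548, 0.277 and 0.980 FPKM in WT oocytes 1, 2, 4 and 5. It passed the filter through 3 KO oocytes and 1 WT oocyte, the fewest that the filter allows. The genotypes overlapped, and the KO mean was 1.32-fold the WT mean, 1.06-fold without KO oocyte 1 and 1.84-fold without WT oocyte 1. Pdk2 had 49 reads in WT oocyte 4 and none elsewhere, and Pdk4 had no read. Pdk1 thus made up 19.7% ± 10.95 of the kinase FPKM in KO and 8.23% ± 5.43 in WT (SD, n = 4 oocytes each), with overlap.

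The phosphatase gene Pdp1, whose product reactivates E1, was on the other side. It held 23.7, 11.7, 17.2 and 16.2 FPKM in KO oocytes 1, 3, 5 and 6, against 9.07, 8.02, 11.4 and 18.1 FPKM in WT oocytes 1, 2, 4 and 5. WT oocyte 5 lay among the KO oocytes, and the KO mean was 1.48-fold higher. Pdp2, the other phosphatase gene, held at most 0.750 FPKM in KO and 0.692 in WT, and Pdpr, which encodes a regulator of the phosphatase, at most 1.08 FPKM in KO and 2.07 FPKM in WT. The ratio of Pdk3 to Pdp1, in which a scaling factor per library cancels, was 0.191, 0.455, 0.164 and 0.412 in KO oocytes 1, 3, 5 and 6, against 0.930, 1.27, 0.683 and 0.552 in WT oocytes 1, 2, 4 and 5. No KO oocyte reached the lowest WT oocyte, also with quantile normalization, at 0.149 to 0.446 in KO and 0.565 to 1.26 in WT. The FPKM of all 4 kinase genes over that of Pdp1 and Pdp2 was 0.234 to 0.463 in KO and 0.606 to 1.33 in WT. Both ratios were chosen after the values of the genes were seen, and mRNA levels do not give enzyme activity.

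**Figure D2:**
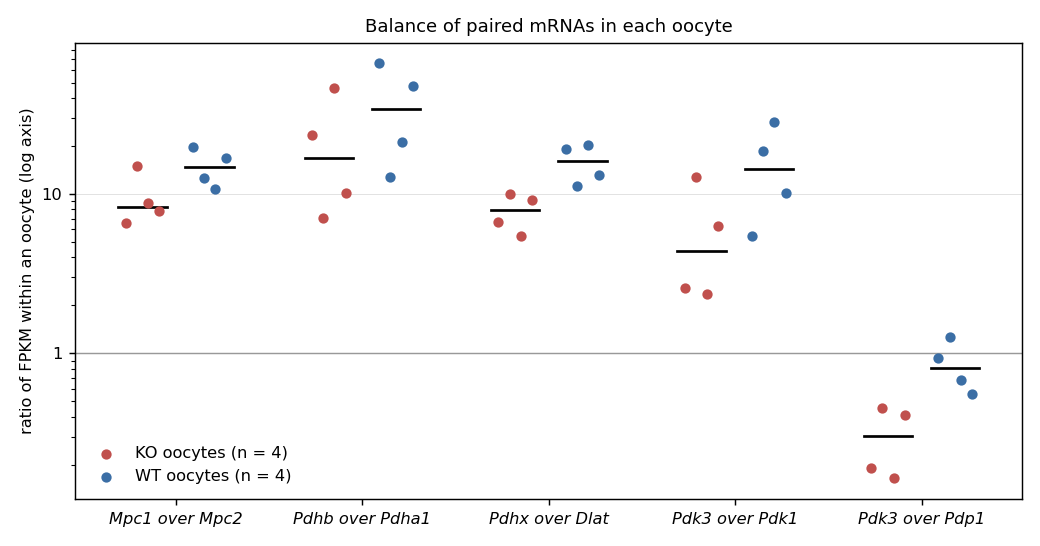
Ratio of FPKM of gene pairs within each oocyte on a log axis, with 1 point per oocyte, KO left of WT, and a black line at the median. Mpc1 over Mpc2 and Pdhb over Pdha1 lie above 1 in all 8 oocytes, and the KO and WT points of Pdk3 over Pdp1 and of Pdhx over Dlat do not overlap as deposited, though those of Pdhx over Dlat do with quantile normalization.

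The order of the mean levels over all 8 oocytes was Ldhb, Pdhb, Dld, Mpc1, Pdk3, Dlat, Mpc2, Pdha1, Pdk1 and Ldha. Gaps without overlap over the 8 oocytes lay only between Ldhb and Pdhb and, by 4.34-fold, between Mpc1 and Pdk3. Dld and Mpc1, at 31.4 and 30.2 FPKM, and Mpc2 and Pdha1, at 2.71 and 2.59 FPKM, were closer than their spread. FPKM depends on the gene model. Dividing the same reads by the exon lengths of GENCODE M21 gave 18.8 for Pdhb and 19.1 for Dld, both below 30.3 for Mpc1. The reads were not counted again on the GENCODE M21 exons, so these values show the effect of length alone and are not levels under that annotation. Mpc2 came to 1.41. Both gaps in the order stayed, and this check was added after the data were seen.

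Genes whose profile over the 8 oocytes was most like that of Ldhb were Cfl1, Anapc11 and Pcnt. Likeness was the mean absolute difference between deviations of log2(FPKM + 1) from each gene's mean, among 2993 compared genes with a mean of at least 10 FPKM. It was 0.14, 0.17 and 0.21 for these genes, where the median gene stood at 0.51 from Ldhb. For Pdk3, the compared member with the largest difference, the nearest were Fbxo9, Zc3h8 and Gng5 at 0.15, 0.17 and 0.18, with a median of 0.52. The 8 oocytes share their library scaling with every gene, and likeness says nothing of function.

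Other genes of the pathway were taken from a list of enzymes and transporters around pyruvate. Of 35 such genes 17 could be compared, of which 5 were called higher and 2 lower in KO, and 6 had no read in any oocyte. All compared genes gave 18.3% and 6.84% for these calls, and 13.4% and 7.37% for oocytes that do not overlap, where the list had 2 genes higher and 2 lower. The median difference of the list was -0.17, beside 0.10 for all compared genes.

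Of the 3 lipoylation genes 2 were compared, and both were called higher in KO. Lipt2, which encodes the octanoyltransferase that starts the lipoyl arm, held 5.61, 6.11, 1.62 and 5.27 FPKM in KO oocytes 1, 3, 5 and 6, against 0.753, 1.21, 1.08 and 1.47 FPKM in WT oocytes 1, 2, 4 and 5. Lipt1, which encodes the lipoyl transferase of E2 enzymes, held 2.49, 3.23, 6.68 and 6.46 FPKM in the KO oocytes, against 2.25, 1.90, 0.558 and 0.762 FPKM in the WT oocytes. No oocytes of the genotypes overlapped in either gene, at 4.13-fold for Lipt2 and 3.45-fold for Lipt1. Each reached 1 FPKM in all 4 KO oocytes, and in WT Lipt2 did so in 3 and Lipt1 in 2. The genotype where they are high thus sufficed for the filter. Their lowest KO oocytes, 5 for Lipt2 and 1 for Lipt1, lay just above the WT range. With quantile normalization both genes overlapped, as did Lipt2 with median-of-ratios scaling. Of the exonic bases of Lipt1, 12.8% lie within Mitd1 as well. More genes reached 1 FPKM in KO than in WT oocytes, and the part of this in these calls was not tested. Lias, the lipoyl synthase gene, was not compared and had 789 reads over the KO oocytes and 90 over the WT oocytes, with 0.149 FPKM in KO oocyte 5 against 0.518 FPKM in WT oocyte 5, so that the genotypes overlapped.

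Among producers and users of pyruvate, Gpt2, the mitochondrial alanine transaminase gene, held 1.09, 0.686, 0.570 and 0.430 FPKM in KO oocytes 1, 3, 5 and 6, against 2.43, 2.50, 1.82 and 2.19 FPKM in WT oocytes 1, 2, 4 and 5. Every KO oocyte lay below every WT oocyte under all scalings tried, and the mean was 3.22-fold lower in KO. Gpt2 reached 1 FPKM in 4 WT oocytes and 1 KO oocyte, so it passed the filter through the genotype where it is high. Me2, the mitochondrial malic enzyme gene, was also without overlap under all scalings, at 6.18 ± 1.94 FPKM in KO and 11.2 ± 0.841 FPKM in WT, and it is named after its values were seen. The pyruvate kinase gene Pkm averaged 9.91 ± 3.53 FPKM in KO and 4.86 ± 4.75 FPKM in WT, 2.04-fold higher with overlap. The fold was 3.97 without WT oocyte 1, 1.84 with median-of-ratios scaling, and between 1.69 and 1.81 without any of WT oocytes 2, 4 and 5 or KO oocyte 6 in turn. Pcx, the gene of pyruvate carboxylase, which feeds oxaloacetate, held at most 0.119 FPKM in KO and 0.103 FPKM in WT.

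Transport genes overlapped between the genotypes. Slc16a1 encodes the monocarboxylate transporter MCT1 and averaged 2.06 ± 1.01 FPKM in KO and 2.91 ± 0.528 FPKM in WT. Slc16a7, encoding MCT2, held at most 1.77 FPKM in KO and 0.589 FPKM in WT, and Slc16a3 and Slc16a8 had no read. Their ancillary protein genes were more abundant: Emb, embigin, averaged 17.98 ± 10.4 FPKM in KO and 18.1 ± 4.54 FPKM in WT. Bsg, basigin, held 16.4, 4.87, 6.98 and 14.5 FPKM in KO oocytes 1, 3, 5 and 6, against 9.09, 6.93, 1.81 and 2.90 FPKM in WT oocytes 1, 2, 4 and 5. Its 2.06-fold higher mean in KO was 1.88-fold with median-of-ratios scaling, 1.81-fold with quantile normalization, and between 1.69-fold and 1.82-fold without KO oocyte 1, KO oocyte 6, WT oocyte 4 or WT oocyte 5 in turn. In the malate-aspartate shuttle, which moves cytosolic reducing power into mitochondria, Got1 was 2.38-fold lower in KO with overlap, 1.85-fold lower without KO oocyte 1 and 1.77-fold lower without WT oocyte 5.

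**Figure D3:**
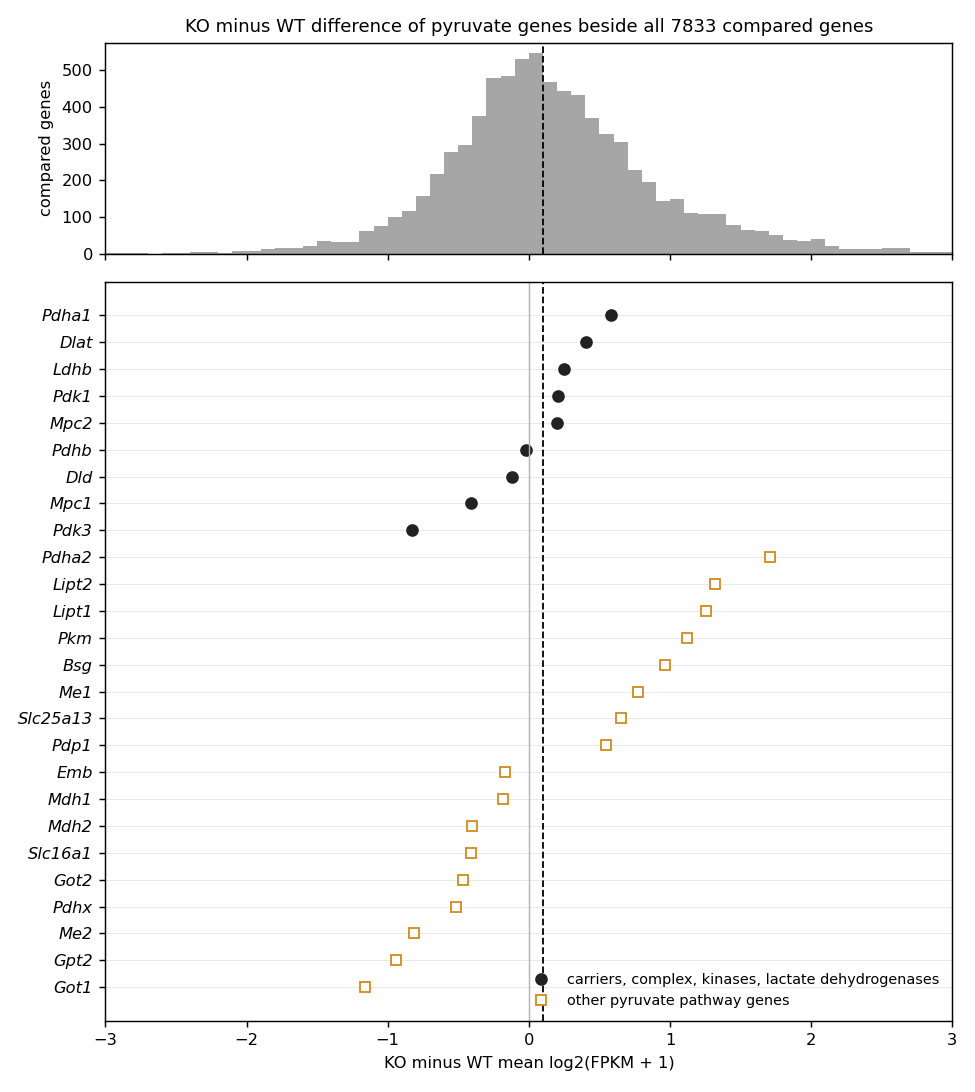
KO minus WT difference of mean log2(FPKM + 1), as a histogram of the 7833 compared genes above, without the few beyond the axis, and for each compared pyruvate gene below, filled circles for carrier, complex, kinase and lactate dehydrogenase genes and open squares for the other pathway genes. The dashed line is the median of all compared genes, 0.10, and the members run from -0.83 for Pdk3 to 0.58 for Pdha1.

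**Figure D4:**
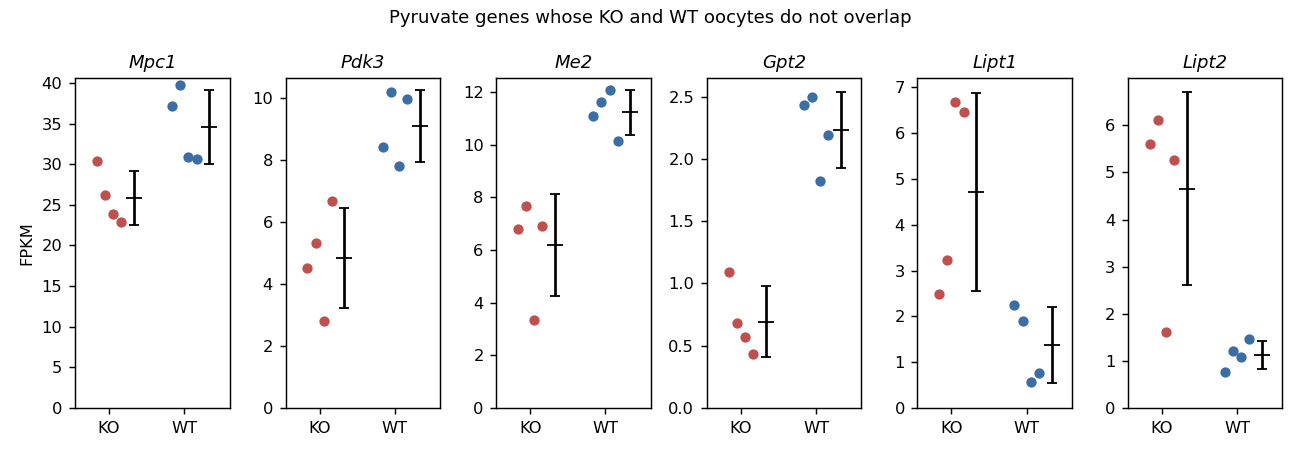
FPKM of the 6 compared pyruvate genes whose KO and WT oocytes do not overlap as deposited, with 1 point per oocyte, KO left of WT, and mean ± SD of 4 oocytes beside the points. Mpc1, Pdk3, Me2 and Gpt2 are lower in KO, Lipt1 and Lipt2 higher, though Mpc1 and Pdk3 overlap when scaled to the sum, and Lipt1 and Lipt2 with quantile normalization.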

How the data were processed

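The authors deposited FPKM per gene and oocyte, with zeros. Bowtie 0.12.8, TopHat2 2.0.2, HTSeq, edgeR 3.1.10 and mm9 are named without roles in the submitters' processing notes. Per the labels' protocols, cDNA was amplified from single oocytes with ERCC RNA added. ERCC values were not used here, so levels are relative. How strand and reads shared by gene copies were treated: not given in the sources used here. PCR copies of a molecule count as separate reads, so intervals cover counting error only.

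Of 37620 identifiers 32897 matched a symbol. Whole reads were recovered within 0.0001 reads from the FPKM step, and gene positions came from GENCODE M21 (GRCm38). Differences use means of log2(FPKM + 1), a scale that shrinks those of low genes, and folds divide mean FPKM of KO by that of WT. Genes named were all members, complex, lactate dehydrogenase and transport genes of the list, other compared list genes past 2-fold, and the 3 genes most like 2 members. Pcx and Lias were not compared and so fall outside this rule. Me1, Me2, Mdh1, Mdh2, Got2, Gpt, Slc25a12 and Slc25a13 fall outside it as well and were named after their values were seen, as were the markers named singly. Members and lists were chosen with earlier results of these data known. Alternatives covered pseudocount, filter, scaling, each oocyte left out and a replicate block. The calculations were made in Python 3.11.15. Only the differences, the folds and the 2-fold rule were tested on simulated data with known changes.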

Additional observations from a re-analysis of the deposited data

Results flagged for a closer look

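In KO oocyte 1 Ldha stood far from the other KO oocytes: its gap to the next value was 0.917 of the whole KO range of log2(FPKM + 1), at 1.40 FPKM against 0 to 0.0760 FPKM in the others. It was the 1 case among 25 groups of 4 oocytes checked over the members and 3 shares. Chance gives about 1 in 20 groups only where values are normal and groups independent. That rate does not apply here, since Ldha had 0 reads in KO oocytes 3 and 6 and the shares reuse values of members. Its cause was not tested.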

How the results depend on the processing

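No member was called higher or lower by 2-fold in the main comparison, and single members crossed that line under some settings. The count of higher members was 1 with no filter, by Ldha, and 1 scaled to the sum of gene values, by Pdha1. The count of lower members was 1 with median-of-ratios scaling, with quantile normalization and with a replicate block, each by Pdk3. Leaving out 1 oocyte gave counts of 0 to 1 in each direction, with Pdha1 at 2.16-fold without KO oocyte 1, 2.36-fold without KO oocyte 5, 2.32-fold without WT oocyte 2 and 2.18-fold without WT oocyte 4, and Pdk3 2.16-fold lower without KO oocyte 6. The median difference of members was -0.12 with a mean FPKM of at least 5, -0.064 with quantile normalization and -0.040 to 0.23 without single oocytes, so its sign is not stable. The replicate block rests on numbers 1 and 5, which the labels share without saying that they pair oocytes; the deviations of the same-numbered oocytes correlated at 0.030 and 0.068 over 7833 genes. With the block the median was 0.0027, the Ldhb difference was -0.40, the Ldhb share differed by -0.13 and the Mpc2 share by 6.44 percentage points, and over all genes 1020 were higher and 513 lower. Over all genes compared, 1434 higher and 536 lower in the main comparison became 6789 and 2875 with no filter, 555 and 271 with a mean FPKM of at least 5, 1849 and 357 scaled to the sum, and 1043 and 886 with quantile normalization. The causes were not tested. Mpc1 and Pdk3 were lower in KO in all 16 alternatives, from -0.55 to -0.20 and from -1.15 to -0.53. Pdha1 and Dlat were higher in all 15 that apply. Pdhb turned sign in 5, Dld in 3, Ldhb in 2, and Mpc2 and Pdk1 in 1 each. Ldha, Ldhc and Pdk2 had no read in some oocytes, so their values rest on the others, and the reason was not tested.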

Other observations

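Enzyme pairs with a cytosolic and a mitochondrial form were set side by side after their values were seen, and they did not all go one way. Mdh1, cytosolic malate dehydrogenase, averaged 124 ± 17.0 FPKM in KO and 141 ± 8.91 FPKM in WT, and mitochondrial Mdh2 averaged 2.82 ± 1.94 FPKM in KO and 4.02 ± 3.20 FPKM in WT (SD, n = 4 oocytes each). Cytosolic malic enzyme, Me1, averaged 108 ± 32.4 FPKM in KO and 61.2 ± 12.4 FPKM in WT with overlap. The ratio of Me1 to mitochondrial Me2 was 9.61 to 39.3 in KO and 4.19 to 6.43 in WT, without overlap, also with quantile normalization. Dividing the same reads by GENCODE M21 exon lengths multiplies the ratio alike in every oocyte, so it cannot change overlap. Cytosolic Got1 exceeded mitochondrial Got2 in 7 of 8 oocytes, the exception being KO oocyte 1. The alanine transaminases went the other way, since cytosolic Gpt had no read in any oocyte while mitochondrial Gpt2 averaged 0.694 FPKM in KO and 2.24 FPKM in WT. Of the mitochondrial aspartate-glutamate carriers, Slc25a13 held 10.96 to 28.8 FPKM in KO and 8.26 to 16.4 FPKM in WT, and Slc25a12 averaged 0.502 ± 0.113 FPKM in KO and 0.551 ± 0.388 FPKM in WT.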
